A study of Mus musculus with 4 samples.

Results

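The regions described here are 1711 long islands of trimethylated histone H3 lysine 9 (H3K9me3) that were listed in CD8+ T cells on day 3 of culture and had no counterpart in naive cells. An island is a stretch of the genome in which chromatin immunoprecipitation (ChIP) reads were enriched, as listed by the authors. The regions were chosen by 3 measured properties: an island of the day 3 list on chromosomes 1 to 19, a length of at least 8000 bp, and no shared base with any island of the day 0 list. They made up 1711 of the 47545 autosomal day 3 islands, or 3.60% (95% Wilson interval 3.44 to 3.77). Length and absence on day 0 are therefore properties of the choice and not results. The 2 ChIP libraries came from wild-type C57BL/6 CD8+ T cells, either naive (day 0) or cultured in vitro with antibodies against CD3 and CD28 plus interleukin-2 (day 3). Both were native ChIP libraries, made from 4000000 cells without cross-linking after digestion with micrococcal nuclease. Each day had 1 ChIP library, and nothing in the labels says how many mice gave the cells. No test between days was possible, and intervals cover counting error only.

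H3K9me3 is laid down by methyltransferases such as SUV39H1 and SETDB1 and is bound by heterochromatin protein 1. It is known from silent, compacted chromatin, where it covers repeats, transposable elements and genes of other lineages, often as broad domains. In T cells the pathway is known to help keep genes of alternative fates silent. No expression was measured, so the cell type could not be checked against marker transcripts. The T cell genes Cd3d, Cd3e, Cd3g, Cd8a and Cd8b1 carried 0 islands of the mark on either day.

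Promoter sequence inside these islands shows the kind of DNA at a gene start that the mark covered. Each sequence below runs 5′ to 3′ on the gene's strand, from 250 bases before to 50 bases after the annotated start, and is credited to RefSeq with build GRCm38.p6, the assembly that mm10 names. Capitals mark CpG dinucleotides. The first 3 sequences belong to the protein-coding genes with a listed start in the longest islands. Acvr1c and Cacna1d have 2 listed starts each, of which 1 lay in such an island and is shown. Il7r, Klrk1 and Runx2 were picked for their known roles in lymphocytes or differentiation after their values were seen. The windows are Acvr1c chr2:58324758-58325057 (minus strand), B3galt2 chr1:143640447-143640746 (plus), Cacna1d chr14:30491107-30491406 (minus), Il7r chr15:9529827-9530126 (minus), Klrk1 chr6:129623815-129624114 (minus) and Runx2 chr17:44814578-44814877 (minus).
Acvr1c: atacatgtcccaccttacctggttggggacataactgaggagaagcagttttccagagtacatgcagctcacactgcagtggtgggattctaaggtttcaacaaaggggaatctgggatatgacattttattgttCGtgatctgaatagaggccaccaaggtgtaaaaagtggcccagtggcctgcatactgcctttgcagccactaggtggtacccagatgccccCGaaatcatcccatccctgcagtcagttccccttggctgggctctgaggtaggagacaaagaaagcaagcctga
B3galt2: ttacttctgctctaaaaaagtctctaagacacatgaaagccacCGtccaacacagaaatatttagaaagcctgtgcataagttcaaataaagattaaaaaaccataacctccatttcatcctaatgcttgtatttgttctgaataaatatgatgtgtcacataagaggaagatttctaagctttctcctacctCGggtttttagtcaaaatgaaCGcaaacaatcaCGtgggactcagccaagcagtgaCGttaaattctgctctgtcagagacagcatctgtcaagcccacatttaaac
Cacna1d: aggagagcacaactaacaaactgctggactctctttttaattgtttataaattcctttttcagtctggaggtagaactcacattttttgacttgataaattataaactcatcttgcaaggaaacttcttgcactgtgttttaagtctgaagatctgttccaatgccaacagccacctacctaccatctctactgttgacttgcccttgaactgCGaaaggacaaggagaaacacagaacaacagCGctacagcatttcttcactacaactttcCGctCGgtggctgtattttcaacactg
Il7r: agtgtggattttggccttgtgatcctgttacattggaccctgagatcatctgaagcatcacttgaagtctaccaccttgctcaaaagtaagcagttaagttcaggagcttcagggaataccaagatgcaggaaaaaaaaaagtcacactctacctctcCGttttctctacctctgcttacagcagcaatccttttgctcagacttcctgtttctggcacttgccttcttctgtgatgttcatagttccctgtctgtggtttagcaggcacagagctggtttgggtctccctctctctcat
Klrk1: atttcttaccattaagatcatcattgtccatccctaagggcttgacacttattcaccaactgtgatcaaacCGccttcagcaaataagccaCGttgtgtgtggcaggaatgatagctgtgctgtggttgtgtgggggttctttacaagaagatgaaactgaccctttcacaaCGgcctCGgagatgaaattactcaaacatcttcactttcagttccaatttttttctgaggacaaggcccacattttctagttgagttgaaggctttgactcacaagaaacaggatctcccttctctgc
Runx2: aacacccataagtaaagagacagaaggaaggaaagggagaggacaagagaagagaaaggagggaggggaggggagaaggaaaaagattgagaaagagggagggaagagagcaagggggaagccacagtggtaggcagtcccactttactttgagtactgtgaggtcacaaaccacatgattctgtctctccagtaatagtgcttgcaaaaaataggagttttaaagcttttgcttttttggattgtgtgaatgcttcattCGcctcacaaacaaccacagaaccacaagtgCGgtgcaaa

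These windows held few CpG dinucleotides: 2 in Acvr1c, 5 in B3galt2, 4 in Cacna1d, 1 in Il7r, 4 in Klrk1 and 2 in Runx2. Of all 31396 autosomal promoter windows, 13.8% had as few as Il7r and 43.2% had as few as B3galt2. Acvr1c encodes a type I receptor of the TGF-beta superfamily. The start shown is internal to the gene body, and the island over it (chr2:58316601-58337200) lay wholly inside the body, away from the gene's outer start. It was 20600 bp long and held 1067 reads, or 51.8 reads per kb. B3galt2, a galactosyltransferase gene of 9.24 kb nested inside Cdc73, lay across 2 neighbouring islands of 15800 and 16800 bp with 53.9 and 53.7 reads per kb. Together they covered 84.9% of its body. The outer of the 2 listed starts of Cacna1d, an L-type calcium channel subunit gene, lay in an island of 14400 bp whose nearest day 0 island was 132.6 kb away.

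Il7r encodes the interleukin-7 receptor's alpha chain, which naive and memory T cells need to survive. Its start lay 0.924 kb inside an island of 11200 bp (chr15:9519601-9530800, 51.5 reads per kb), and the nearest day 0 island was 98.2 kb away. Klrk1 encodes NKG2D, an activating receptor of natural killer cells and activated CD8+ T cells. Its start lay in an island of 9600 bp with 517 reads, which covered 4.30 kb of the gene. Runx2 encodes a RUNX transcription factor best known from bone. An island of 9600 bp with 518 reads held its start, and 2 further long day-3-only islands of 10400 and 9400 bp lay inside its body.

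Over all of these islands, 61 promoter windows of 59 genes were wholly covered, which is 0.194% of the 31396 windows. The islands cover 0.699% of the autosomes, so promoter windows were scarcer in them than along the autosomes. The same held for all day 3 islands, with 2.56% of windows and 8.07% of the autosomes. A gene with several listed starts counts if 1 of them was covered. Of these genes, 32 were protein-coding and 27 were lncRNA genes. The islands held 3.55 windows per Mb, against 4.05 in shorter islands without a day 0 overlap and 4.70 in long day 3 islands that overlapped a day 0 island. The median window inside a long day-3-only island held 3 CpG (quartiles 1 and 5) and had a GC content of 42.7%. The median of all autosomal windows was 7 CpG (quartiles 3 and 21) and 53.0% GC. Windows with 3 CpG or fewer made up 36 of the 61 (59.0%, interval 46.5 to 70.5) and 30.9% of all windows. The same share among windows inside any day 3 island was 64.1% (60.8 to 67.4), an interval that overlaps that of the long islands. By gene type, the share was 60.6% (43.7 to 75.3) of the 33 protein-coding windows in the long islands and 23.1% of all such windows. For lncRNA windows it was 57.1% (39.1 to 73.5) of 28 and 44.8% of all, a value within that interval. No window with 20 or more CpG lay in these islands (0 of 61, which allows a share of up to 4.92%), while 27.0% of all windows were of that kind. The motif TATAAA, on either strand, was present in 9 of the 61 windows (14.8%, interval 7.96 to 25.7), in 27.9% (24.9 to 31.1) of windows inside any day 3 island and in 13.6% of all windows. These are counts of letters in a window, not of bound sites.

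**Figure D1:**
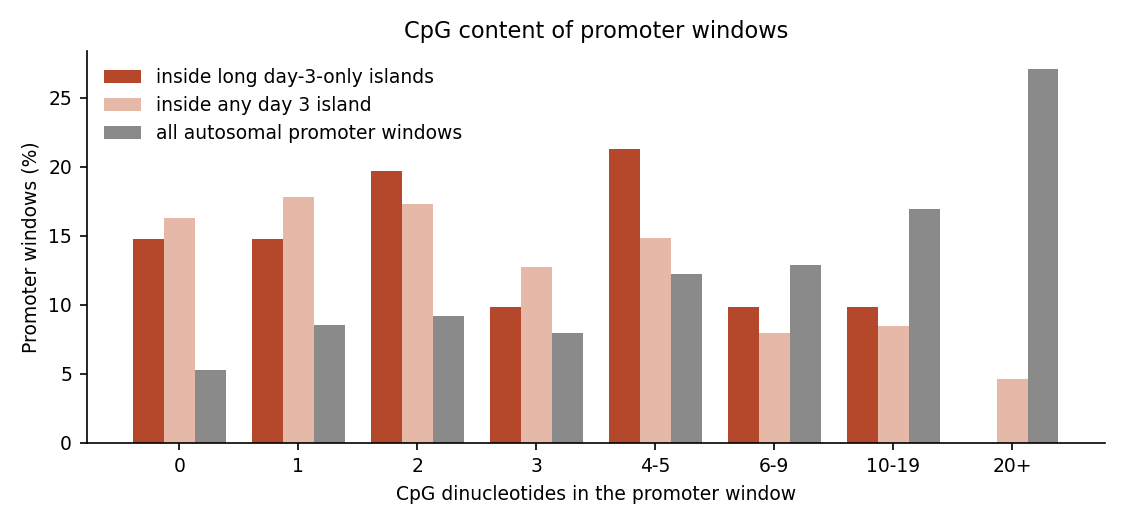
CpG dinucleotides per promoter window (x axis, classes) against the percentage of windows (y axis) for the 61 windows inside long day-3-only islands, the 803 windows inside any day 3 island and all 31396 autosomal windows. Windows inside islands sit at the low end, and 27.0% of all windows but 0 of the 61 hold 20 or more CpG.

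Other gene starts inside these islands served varied functions. Nck1 encodes an adaptor that links the T cell receptor to the actin cytoskeleton, and 1 of its 2 listed starts lay in an island of 9600 bp (47.5 reads per kb). Lars2, the mitochondrial leucyl-tRNA synthetase gene, had the most CpG of any window inside these islands, with 18. Rad21l, a meiotic cohesin gene, had 51.0% of its body (13.4 kb) in such an island. Abcb1a encodes the drug efflux pump P-glycoprotein, and its start lay in an island of 12200 bp with 57.6 reads per kb. The starts of Olfr389, Olfr655, Olfr693, Olfr710, Olfr920, Olfr1106 and Olfr1368, which encode olfactory receptors, lay in islands of 8200 to 9800 bp. Those of the vomeronasal receptor genes Vmn2r93 and Vmn2r105 lay in islands of 8800 and 8200 bp. Members of such families resemble each other in sequence, and the sources used here do not say how reads with several matches were placed. Of the 32 protein-coding genes, 19 had no day 0 island anywhere in their body. Among all 821 protein-coding genes that these islands overlapped, 217 (26.4%) had none. Short genes rarely carry one: of 1104 olfactory receptor genes, with a median body of 0.950 kb, 60 had a day 0 island. The share over all protein-coding genes is not given here, so the 19 are a description only.

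Of the 1136 autosomal miRNA genes in the RefSeq gene table, 9 (0.792%) overlapped these islands, which cover 0.699% of the autosomes. The RefSeq sequence table holds 919 autosomal hairpins. Of these, 6 lay wholly inside these islands, and 53 overlapped a day 3 island of any kind. Mature sequences from 4 of the 6 are shown because 2 of the clusters are known regulators of lymphocytes, with the seed (bases 2 to 8) in capitals.
miR-29b-3p: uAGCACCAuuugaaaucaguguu
miR-29c-3p: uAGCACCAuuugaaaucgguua
miR-99a-5p: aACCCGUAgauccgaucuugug
let-7c-5p: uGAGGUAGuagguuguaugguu
miR-29b and miR-29c share 1 seed, and miR-29 is known to restrain T-bet, Eomes and interferon gamma in T cells. Mir29b-2 and Mir29c lay together in an island of 18000 bp (chr1:195030401-195048400) with 999 reads, or 55.5 reads per kb, 28.4 kb from the nearest day 0 island. Mir99a and Mirlet7c-1 lay together in an island of 8200 bp (chr16:77595401-77603600) with 416 reads and 50.7 reads per kb, 67.4 kb from the nearest day 0 island. The let-7 family is known to hold naive CD8+ T cells in a quiescent state. Of 11 autosomal mature miRNAs with the let-7c-5p seed, 1 lay in these islands. Of 4 with the seed of miR-29b-3p and miR-29c-3p, 2 did. Mir1927 and Mir719 lay in islands of 8600 and 9600 bp.

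The 1711 islands covered 17.2 Mb, or 0.699% of the autosomes, and held 883780 reads. Their median length was 9400 bp (quartiles 8600 and 10800, longest 30600). The median read count was 481 (quartiles 426.5 and 567.5, from 311 to 1771). Read density, the deposited count divided by island length, had a median of 51.1 reads per kb (quartiles 48.2 and 54.1, from 38.9 to 94.4). Counts are not scaled for depth or input. Day 0 islands as a whole had a median density of 34.1 reads per kb, below the 52.9 of all day 3 islands, and the part this difference has in the absence of day 0 islands was not tested. Long day 3 islands that overlapped a day 0 island numbered 949 and had a median of 53.0 reads per kb (quartiles 50.4 and 55.6). The 38773 shorter islands without a day 0 overlap had a median of 52.8 (48.9 and 57.5). The quartile ranges of the 3 sets overlapped widely. At the edge of the rule, the 149 islands of exactly 8000 bp held 311 to 490 reads, and the 184 excluded islands of 7800 bp held 313 to 498.

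Most day 3 islands had no day 0 counterpart whatever their length, at 85.1% of all autosomal day 3 islands. Among those of at least 8000 bp the share was 64.3%. It was 89.8% below 2 kb, 70.9% from 8 to 10 kb (1071 of 1510), 59.1% from 10 to 12 kb, 57.0% from 12 to 16 kb and 35.8% at 16 kb or more (48 of 134, interval 28.2 to 44.2). A longer island also offers more bases to overlap. Within these islands, density was higher in the longer classes. The median was 50.7 reads per kb from 8 to 10 kb, 51.3 from 10 to 12 kb, 52.5 from 12 to 16 kb and 53.3 from 16 kb. Long islands that overlapped day 0 were denser in each class, with medians of 52.6, 52.7, 53.5 and 54.5. Each of these gaps was smaller than the spread between the quartiles.

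**Figure D2:**
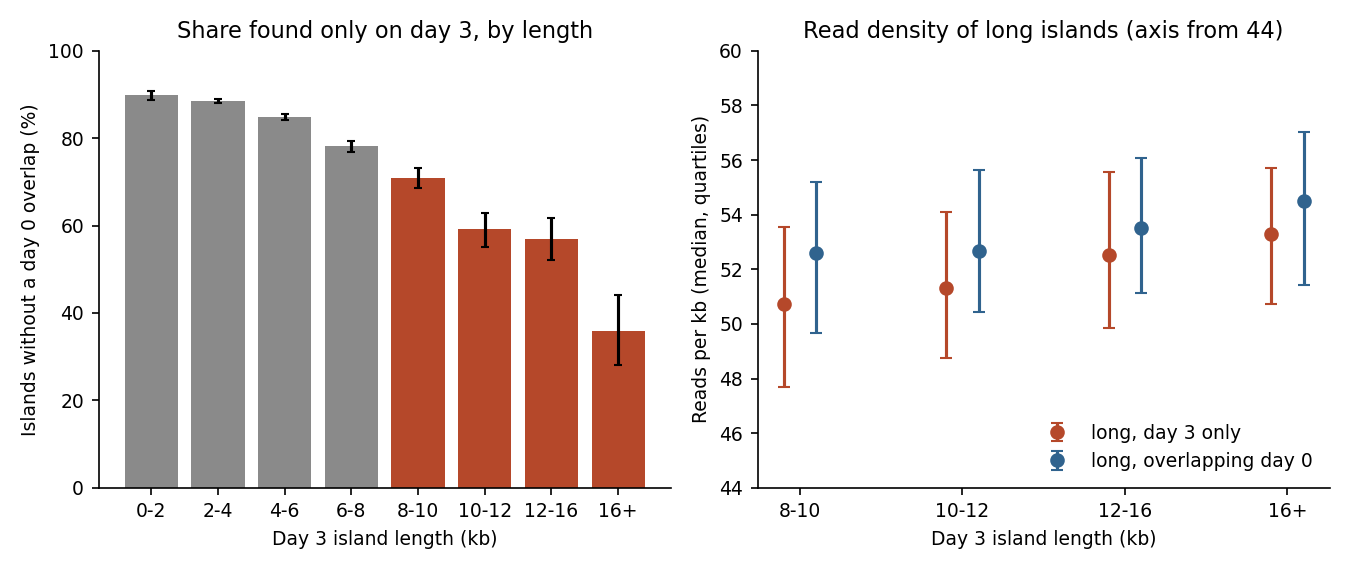
Left, percentage of day 3 islands without a day 0 overlap (y axis, 95% Wilson intervals) by island length in kb, with the classes that supply the 1711 islands in red, and right, reads per kb (median with quartiles, axis from 44) by length for long islands found only on day 3 and long islands overlapping day 0. The share is 89.8% in the shortest class and 35.8% in the longest, and the quartile bars of the 2 kinds of long island overlap in every class.

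Most of the longest islands lay in genes. Of the 10 longest, 9 overlapped a protein-coding gene, beside 75.1% of the long day-3-only islands of at least 12000 bp. The longest of all (chr9:72335001-72365600) spanned 30600 bp with 1771 reads (exact Poisson interval 1689 to 1855) and held 28.8 kb of Zfp280d, a zinc finger gene. The nearest day 0 island was 0.2 kb away. The second (chr18:89490401-89517200) spanned 26800 bp within Dok6, a docking protein gene best known from neurons. It held 1521 reads and lay 18.2 kb from day 0 islands. Islands of 21800, 21400, 21000 and 20800 bp followed in U2surp, which encodes a splicing-associated protein, in the kinase gene Braf, in the nuclear receptor gene Pparg and in Ankrd17. The islands in Acvr1c, Kifap3 and Rap1gds1 measured 20600, 20200 and 20200 bp. The remaining 1, of 20000 bp (chr10:36092601-36112600), was 380.7 kb from the nearest protein-coding gene.

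The densest island (chr3:106220601-106230600) held 944 reads over 10000 bp, or 94.4 reads per kb, and lay 1.12 kb from the chitinase-like gene Chil4. It was followed at 74.8 reads per kb by an island over the zinc finger genes Zfp981 and Zfp993, and at 71.0 by an island over the predicted gene Gm39469. Chil4, Zfp981 and Zfp993 have close relatives beside them, so reads could have been split or shared between copies. Ptpn4, a tyrosine phosphatase gene, Crb1 and the meiotic gene Sycp1 held islands of 68.7, 67.1 and 65.7 reads per kb. Islands of 65.2, 64.0, 64.0 and 63.6 reads per kb followed, the first near Neurod1 and the others in Btbd10, Pikfyve and Cep170. The least dense island, at 38.9 reads per kb, lay in Foxo1 and held 311 reads.

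Protein-coding gene bodies were overlapped by 1077 of the 1711 islands (62.9%, interval 60.6 to 65.2), and 961 lay wholly within gene bodies. The share was 43.1% (42.7 to 43.6) for shorter islands without a day 0 overlap and 74.5% (71.6 to 77.2) for long islands with one. Because a longer island touches a gene more readily, bases were also counted. Of the bases in long day-3-only islands, 61.7% lay in protein-coding genes, against 42.6% in the shorter and 73.2% in the overlapping set. Gene bodies make up 40.0% of the autosomes. Another 103 islands (6.02%) overlapped lncRNA genes but no protein-coding gene, and 510 (29.8%) overlapped no annotated gene. Starts of protein-coding genes were inside 33 islands (1.93%). The 634 islands outside protein-coding genes lay a median of 184.9 kb from the nearest one, and 395 of them lay more than 100 kb away. The most distant (chr14:82307401-82317800) was 2126 kb from Pcdh17.

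Inside genes, the islands lay throughout the body. For 667 islands wholly within a single gene of at least 50 kb, the body was divided into 5 equal segments from the gene's start. Segments 1 to 5 held the centres of 20.7%, 19.5%, 25.3%, 18.3% and 16.2% of them. Segment 3 held the most (interval 22.2 to 28.8). Among 444 long islands that overlapped day 0, segment 5 held 10.8% (8.25 to 14.0), an interval that overlaps that of the long day-3-only islands (13.6 to 19.2).

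In all, 821 of 20665 autosomal protein-coding genes (3.97%) had at least 1 base in a long day-3-only island. A single such island was found in 620 of them, and 201 had more. Their bodies were long, with a median of 105.4 kb, against 58.1 kb for the 5930 genes with any day 3 island and 17.5 kb for all genes. The share of genes with such an island was 0.327% for bodies under 10 kb, 5.92% from 30 to 100 kb, 15.7% from 100 to 300 kb and 45.5% from 1000 kb. Counted as bases, the order was different. These islands covered 1.38% of gene body sequence in genes of 100 to 300 kb and 0.611% in genes of 1000 kb or more. Of the 821 genes, 604 (73.6%) had a day 0 island elsewhere in the body and 217 had none.

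Dok6 had the most sequence in long day-3-only islands, with 79.2 kb in 6 islands (53.0 to 59.5 reads per kb), or 16.6% of its body. Its coverage by all islands was 224.2 kb on day 3 and 21.4 kb on day 0. Pde4d and Pde4b, which encode phosphodiesterases that degrade cyclic AMP, had 68.6 and 39.6 kb in such islands. Coverage of Pde4d by day 0 islands was 124 kb, the most among the 20 genes with the most bases in such islands. Inpp4b, a phosphatase gene of phosphoinositide signalling, had 38.8 kb in 4 islands. Among regulators of transcription, the repressor genes Zbtb20 and Trps1 had 56.2 and 53.2 kb. Cdc73, a subunit of the PAF1 elongation complex, had 40.6 kb, and Supt3, a SAGA complex subunit, had 39.2 kb in 4 islands. The bodies of Supt3 and Runx2 overlap, and 3 of the 4 are the Runx2 islands described above. Likewise, 2 of the 3 islands in Cdc73 are those over B3galt2.

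Signalling genes in the same group included the receptor phosphatase gene Ptprk with 53.2 kb, Arhgap15, which encodes a Rac inhibitor, with 41 kb, and Tbc1d5, a Rab regulator, with 40 kb. Among metabolic genes, the adenosine kinase gene Adk had 48 kb, and Cubn, the receptor for vitamin B12 bound to intrinsic factor, had 42.8 kb. Gtdc1 had 48.2 kb, Immp2l, a mitochondrial peptidase subunit gene, 46.4 kb, Zfp280d 40.8 kb, Fhit 38 kb and Fndc3a 38 kb. Qk, which encodes the RNA-binding protein quaking, had 38.8 kb in 3 islands with 54.0, 59.5 and 51.2 reads per kb. Of the 20 genes, Qk was the 1 with no day 0 island in its body.

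**Figure D3:**
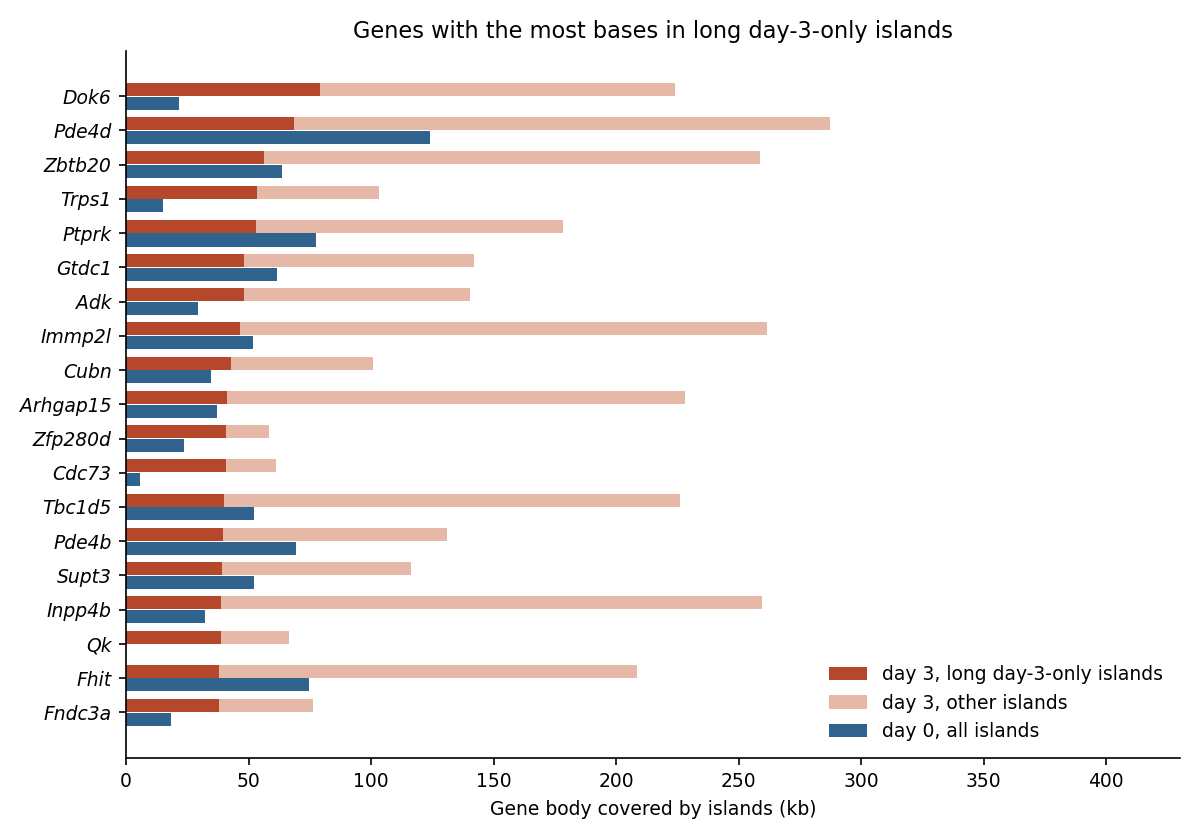
Kilobases of gene body covered by islands for 19 of the 20 genes with the most bases in long day-3-only islands (dark red), by the other day 3 islands (light red) and by all day 0 islands (blue). Dok6 leads with 79.2 kb, Pde4d has the longest day 0 bar at 124 kb, and Qk has none.

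Of all 821 genes, whatever their length, 6 had the whole body inside long day-3-only islands. The share of the body was ranked among genes of at least 5 kb, with predicted genes left out. The 10 leading genes of this ranking had bodies of 6.27 to 55.9 kb, and each had no day 0 island in the body. That absence is largely set by the choice. By the rule these islands share no base with day 0 islands, so a high covered share leaves little body free for one. B3galt2 was followed by Cox6c, a cytochrome c oxidase subunit gene (80.1% of its body), and Ddias, an apoptosis suppressor gene (74.7%). Nabp1, whose product binds single-stranded DNA in repair, had 72.8% and Zfp760 65.9%. Btbd10 was covered over 65.1% by 4 islands in a row with 46.6, 64.0, 61.8 and 60.8 reads per kb, and 76.2 kb or more separated each from day 0 islands. Gabpa encodes an ETS factor known to drive Il7r in T cells, and 65.1% of it lay in 2 islands with 48.9 and 45.9 reads per kb. The lectin-like receptor genes Klrb1f and Klri2, which sit with Klrk1 in the natural killer receptor region of chromosome 6, were covered over 64.8% and 63.6%. Chordc1, a co-chaperone gene, had 58.9%.

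T cell genes were looked up in short lists, which cannot say how large a part of the set such genes make up. Of 21 naive and memory genes, 3 had a long day-3-only island (14.3%, beside 3.97% of all protein-coding genes), and these were Il7r, Foxo1 and Foxp1. Foxo1 encodes a transcription factor of naive T cells that drives Il7r. Its island was 8000 bp, exactly at the length limit, and Foxp1 had 8.40 kb at 43.0 reads per kb. None of the 23 autosomal effector genes had such an island, although 4 had a day 3 island of some kind. Of 14 inhibitory receptor and exhaustion genes 1 had one, the transcription factor gene Tox, with 2 islands of 8400 and 13400 bp and 49.3 and 55.7 reads per kb. Of 17 helper and regulatory genes 1 had one, Ikzf2, which encodes Helios, with 10.6 kb. Counting all islands, the Ikzf2 body was covered less on day 3 (32.2 kb) than on day 0 (42.6 kb). In this list 4 genes had a day 3 island and 5 had a day 0 island. The effector list had a median body of 7.80 kb and the naive and memory list 31.5 kb, in a set where body length goes with the chance of carrying a long island.

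Among genes of other lineages, 10 of 18 neuronal genes (55.6%) had a long day-3-only island, and their median body was 1330 kb. The share was 45.5% (interval 33.0 to 58.5) for all genes of 1000 kb or more. All 18 neuronal genes had a day 0 island, and all 18 had a day 3 island of some kind. Magi2, a synaptic scaffold gene, had 25.4 kb in 3 long day-3-only islands, and Csmd3 had 33 kb in 3. Cntnap2, Ctnna2, Dcc, Dlg2, Erbb4, Lrp1b and Nrxn3 had 1 each, of 8 to 11 kb. Of 11 B cell genes 1 (9.09%) had such an island, Bank1, an adaptor of B cell receptor signalling, with 32 kb in 3 islands. The germline genes Sycp1 and Sycp3, which encode parts of the meiotic synaptonemal complex, were 2 of 12 (16.7%), with 8.80 and 4.64 kb. The B cell and germline lists had median bodies of 40.1 and 19.3 kb. In the B cell list 4 genes had a day 3 island of any kind and 5 had a day 0 island. In the germline list these were 8 and 7. Of all protein-coding genes 3.97% had a long day-3-only island, and of those from 30 to 100 kb 5.92%. These lists are small, and no test was made. The myeloid list (14 genes), the liver and muscle list (17), the housekeeping list (16) and the cell cycle list (16) had none. Their median bodies were short, at 10.8, 10.3, 5.13 and 12.6 kb in that order, and of all protein-coding genes 0.327% below 10 kb and 1.27% from 10 to 30 kb had such an island. Of 14 genes of the H3K9 methylation machinery 2 had such an island (14.3%, with a median body of 41.0 kb for the list). These were the SETDB1 cofactor gene Atf7ip and the demethylase gene Kdm4c, with 11.8 and 9.80 kb. In this list 7 genes had a day 3 island of any kind and 8 had a day 0 island.

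By family, 18 of 388 Zfp zinc finger genes (4.64%) had a long day-3-only island, near the 3.97% of all protein-coding genes. Among olfactory receptors it was 10 of 1104 (0.906%), whose median body is 0.950 kb. Vomeronasal type 2 receptors gave 4 of 123 (3.25%, median body 24.5 kb) and type 1 receptors 0 of 231 (median body 0.924 kb). Glutamate receptor genes gave 4 of 26 (15.4%; Gria4, Grm3, Grm5 and Grm8). Their median body was 279.4 kb, and 15.7% of all genes of 100 to 300 kb had such an island. Potassium channel genes gave 5 of 92 (5.43%, median body 34.5 kb) and solute carriers 14 of 362 (3.87%, median body 28.7 kb). The Cyp2 and Cyp3 genes (57), defensins (42) and keratin-associated proteins (56) gave 0. Their median bodies were 26.1, 3.2 and 0.833 kb. Of all protein-coding genes, 0.327% under 10 kb, 1.27% from 10 to 30 kb and 5.92% from 30 to 100 kb had a long day-3-only island. Of 12408 lncRNA genes, 154 (1.24%) overlapped such an island. The lncRNA gene with the most bases was Gm13219, with 32.2 kb in 3 islands and no day 0 island. Among immunoglobulin heavy chain V genes, 5 of 183 were overlapped (Ighv5-15, Ighv6-2, Ighv12-3, Ighv6-3 and Ighv1-47), as was 1 of 162 kappa V genes. The V genes of the T cell receptor alpha and beta loci gave 0 of 130 and 0 of 35. The beta V genes were not free of the mark. Day 3 islands of any kind overlapped 12 of the 35, against 12 of the 183 heavy chain V genes. Day 0 islands overlapped 5 and 3 of them. These V genes were chosen once their values were known, and V genes of a locus resemble each other in sequence.

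Long day-3-only islands had close neighbours. Another day 3 island lay within 10 kb of 1191 of them (69.6%, interval 67.4 to 71.7), with a median gap of 4.80 kb. For shorter islands without a day 0 overlap the share was 52.1% (51.6 to 52.6) with a median gap of 9.40 kb, and for long islands with an overlap it was 76.1% (73.3 to 78.7) with 3.40 kb. Day 0 islands were also near. The median distance to one was 20.6 kb, against 34.4 kb for shorter day-3-only islands. A day 0 island abutted 9 of the long islands directly, lay within 1 kb of 69 (4.03%), within 5 kb of 311 (18.2%) and within 100 kb of 1542 (90.1%). The island farthest from any day 0 island, at 652.6 kb, overlapped Vmn2r83 (chr10:79481601-79491400).

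**Figure D4:**
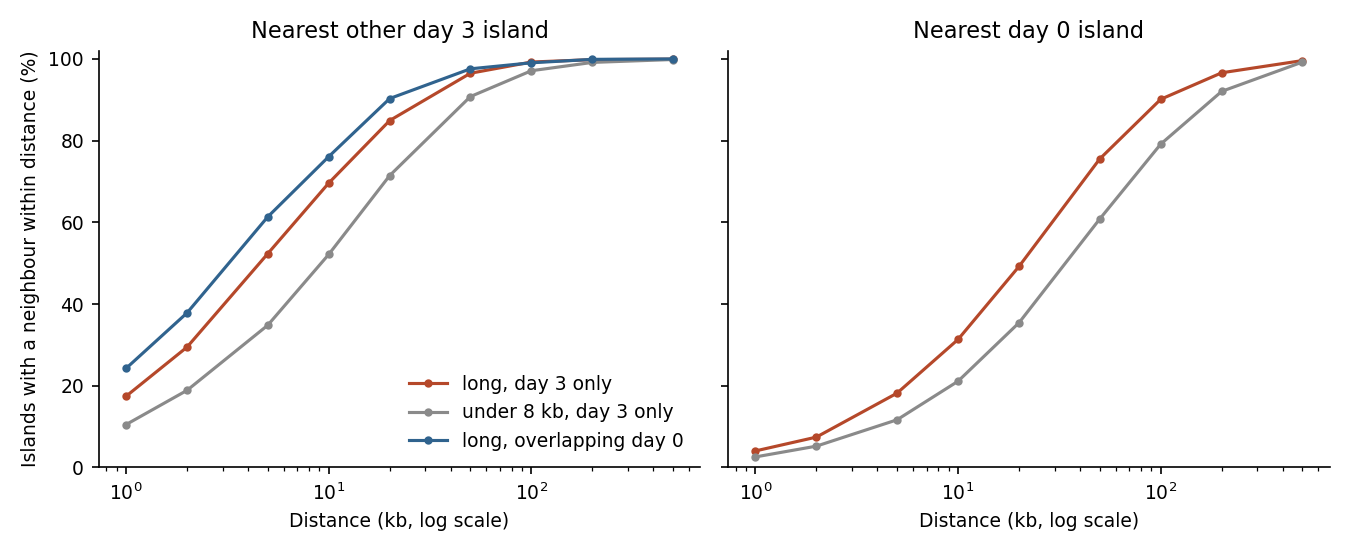
Percentage of islands (y axis) whose nearest other day 3 island (left) or nearest day 0 island (right) lies within a given distance in kb (x axis, log scale), for long day-3-only islands, shorter day-3-only islands and, on the left, long islands overlapping day 0. Long day-3-only islands reach 69.6% at 10 kb on the left and 31.3% on the right, above the shorter islands at 52.1% and 21.1%.

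The surroundings on a scale of 1 Mb were examined by counting within 500 kb of each island's centre. Other day 3 islands covered a median of 138.2 kb there (quartiles 94.2 and 194.3), against 109.5 kb around shorter day-3-only islands. Day 0 islands covered 60.6 kb against 43.8 kb. A protein-coding gene was counted where its lowest coordinate, whatever its strand, lay within this distance. The median number was 4 (quartiles 2 and 9) around long islands and 3 (1 and 8) around shorter ones. None was counted around 185 long islands (10.8%), 17.5% of shorter ones and 15.8% of all day 3 islands. Long islands that overlapped day 0 had higher medians: 150.2 kb in other day 3 islands, 80.2 kb in day 0 islands (those they overlapped included) and 6 genes. None was counted around 3.37% of them.

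Islands were spread unevenly. The nearest other long day-3-only island was a median of 184.8 kb away. It lay within 10 kb for 170 islands (9.94%) and beyond 1000 kb for 265 (15.5%). Of 2470 autosomal windows of 1 Mb, 937 held at least 1, and 42 held 5 or more, with 250 of the islands among them. Both fullest windows held 10. The first, on chromosome 18 from 89000001, held Rttn, Cd226 and Dok6, with 128 kb in such islands. The second, on chromosome 1 from 95000001, held Fam174a and St8sia4, a polysialyltransferase gene, with 118.4 kb. In St8sia4 the islands covered 47.1% of the body. Windows with 8 lay on chromosome 15 from 50000001 (Trps1), chromosome 13 from 104000001 (Adamts6 and 11 other genes), chromosome 12 from 119000001 (Itgb8, Macc1 and Tmem196) and chromosome 2 from 44000001 (Arhgap15, Gtdc1 and Zeb2). Median density in these 6 windows ran from 52.2 to 56.9 reads per kb, above the 51.1 of the whole set. A window on chromosome 12 from 114000001 had 6 islands and no protein-coding gene (V genes are not counted as such), and 0.92% of it lay in day 0 islands.

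Across chromosomes the density was 69.5 islands per 100 Mb. It was highest on chromosomes 2 (103.3, from 188 islands), 16 (98.9, from 97), 1 (87.0) and 3 (84.4), and lowest on chromosomes 11 (36.1, from 44), 7 (42.0) and 8 (46.4). The last island or gene on a chromosome set its length, and unmappable sequence was not subtracted. As a share of each chromosome's day 3 islands, the values lay closer together, from 2.54% on chromosome 11 (interval 1.90 to 3.39) to 4.48% on chromosome 2 (3.90 to 5.15). Of the long day 3 islands on a chromosome, those without a day 0 overlap made up 55.9% on chromosome 9 (47.5 to 64.0) and 78.1% on chromosome 5 (69.6 to 84.7). Over 19 chromosomes, islands per 100 Mb and protein-coding genes per Mb had a Pearson's r of -0.64 and a Spearman's rho of -0.64, as a description. All day 3 islands gave -0.74 and -0.65, from the same library.

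**Figure D5:**
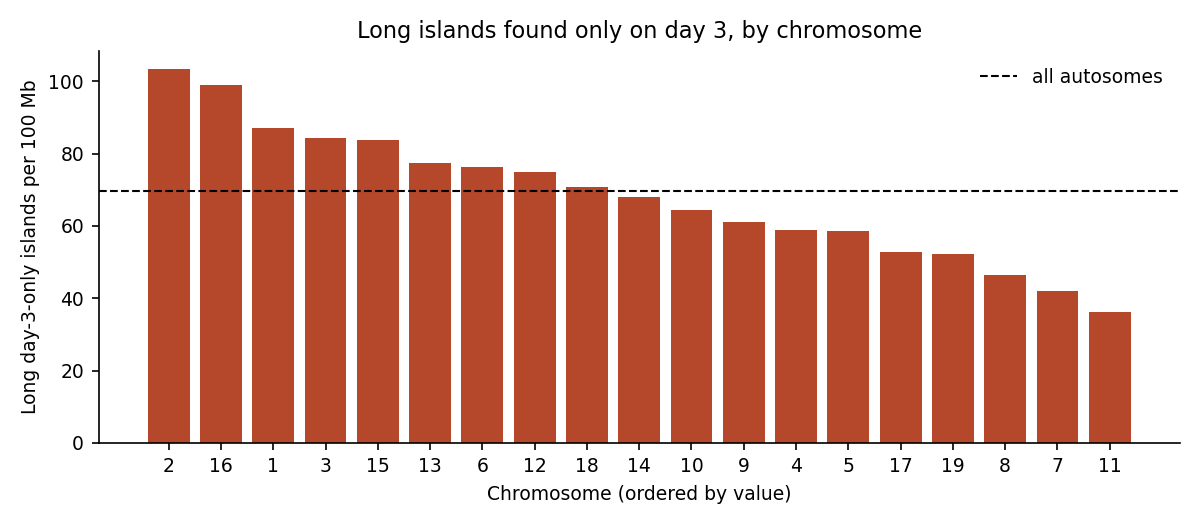
Long day-3-only islands per 100 Mb (y axis) for each autosome, ordered by value, with the value over all autosomes as a dashed line. Chromosomes 2 and 16 stand highest at 103.3 and 98.9, and chromosome 11 lowest at 36.1, against 69.5 over all autosomes.

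Along the chromosome, fewer islands were listed in the end segments. Unmappable sequence was not subtracted from the segments, and its part in these low shares was not tested. With each chromosome divided into 10 equal segments from its centromeric end, segment 1 held 7.60% of the islands (interval 6.44 to 8.95) and segment 10 held 5.96% (4.94 to 7.19). Segment 5 held 13.9% (12.4 to 15.6). Of all day 0 islands, segment 10 held 8.56% (8.18 to 8.95), and of shorter day-3-only islands 6.88% (6.63 to 7.13). Segment 1 held 7.09% of all day 0 islands and 8.43% of shorter day-3-only islands. Of long islands that overlapped day 0, segment 1 held 4.74% and segment 10 held 5.58%.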

How the data were processed

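H3K9me3 native ChIP libraries of naive (day 0) and cultured (day 3) CD8+ T cells were analysed from 2 island lists, 1 per day. The 2 input libraries were not analysed here. Per the submitters' processing notes, Bowtie2, SICER version 1.1 and build mm10 were used. The sources used here do not state their settings or how input was used. Per the labels, each library was sequenced to about 100000000 paired-end reads of 150 bases. The deposited value of each island is a whole number with no column name, taken as a count of reads per island. It is not scaled for depth, length or input. Autosomal islands held 3400431 reads on day 0 (19984 islands) and 10416275 on day 3 (47545 islands). The least dense island had 23.6 reads per kb on day 0 and 34.1 reads per kb on day 3. Where no island is listed, the mark may still be present below the calling threshold.

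Coordinates were converted to 1-based positions of mm10. Overlap meant at least 1 shared bp. Genes, promoter windows and miRNAs came from RefSeq tables of GRCm38.p6. Interval functions were written with numpy 2.4.6 and pandas 2.3.3 and tested on simulated data. Shares have 95% Wilson intervals and reads exact Poisson intervals, from scipy 1.17.1. They cover counting error only, and islands of 1 library are not replicates. With 1 library per day, no test was made. Named genes were the 20 with the most bases in these islands and the 10 with the highest covered share (body of at least 5 kb, predicted genes left out, at most 2 per symbol stem), the 10 longest and 10 densest islands, the fullest 1 Mb windows, and every listed gene that was hit, except 2 that are not reported here. The islands and lists were chosen with earlier results of these data known.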

Additional observations from a re-analysis of the deposited data

How the results depend on the processing

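With 1 library per day, nothing here has a replicate check, and depth outside islands is unknown. No paired analysis was possible because each day had 1 ChIP library. The number of long day-3-only islands, 1711 in 17.2 Mb, stayed within 1.5 times under 3 alternatives. These were day 0 islands widened by 5000 bp (1413), overlap counted from 50% of the island (2287), and exclusion by the denser day 0 islands alone (2101). Reducing the day 3 list to the day 0 list's length by reads could not remove any of them and is no check, since each holds at least 311 reads and the day 3 upper quartile is 250. It was 5154 (40.29 Mb) with a minimum of 6000 bp, 640 (7.831 Mb) with 10000 bp and 281 (3.984 Mb) with 12000 bp. It was 597 (6.287 Mb) with day 3 islands of at least median density and 3231 (33.26 Mb) with islands less than 2000 bp apart joined.

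For minimums of 6000, 10000 and 12000 bp, the share of long islands without a day 0 overlap was 72.94, 55.65 and 51.75% instead of 64.3%. The median density was 50.43, 52.04 and 52.64 reads per kb instead of 51.1, and the share in protein-coding genes 54.48, 71.25 and 75.09% instead of 62.9%. The share with a day 3 neighbour within 10 kb was 63.37, 77.34 and 82.56% instead of 69.6%, and the median distance to day 0 islands 24.8, 17.4 and 15.6 kb instead of 20.6 kb. With the denser day 3 islands, the same 5 values were 55.07%, 55.25 reads per kb, 74.37%, 67% and 14.8 kb. With joined islands, the last 4 were 51.76 reads per kb, 58.03%, 57.29% and 24.4 kb, and the first was 65.9%. When the denser day 0 islands alone excluded, the share without overlap was 78.98% and the median distance to those islands 44.2 kb. With gene bodies widened by 5000 bp the genic share was 65.63%, and with all annotated genes 70.19%. The neighbour share was 52.31% at 5 kb and 84.92% at 20 kb. The cause of these shifts was not tested.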
